A study of Mus musculus with 6 samples.

Results

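The genes described here are 10 genes by which resident macrophages of the bone marrow are recognized: C1qa, C1qb, C1qc, Cd68, Mrc1, Cd163, Mertk, Spic, Hmox1 and Vcam1. They were picked by name, and all 10 were found among the 55487 genes of the expression table. In the libraries labelled pIpC, 8 of them were higher than in the PBS libraries, by 7.87-fold (Cd163) to 46.7-fold (Spic), and Cd68 and Vcam1 were lower, by 1.63-fold and 1.89-fold; of all 15020 genes tested, 25.0% were higher and 20.4% lower. The genes of the group thus did not move as one: the C1q chains, the scavenger receptors, Spic and Hmox1 moved one way, and the lysosomal protein and the adhesion molecule the other. The folds of Spic and Mertk rest on few PBS reads, and both genes could be tested only through their counts in the libraries labelled pIpC.

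The table comes from an experiment on the role of BRD9, a bromodomain subunit of the non-canonical BAF chromatin remodelling complex, in the maintenance of leukemia driven by the MLL-AF9 fusion oncogene. The recipients, CD45.1(+) CD45.2(-) mice irradiated with 450 cGy, given 2 times, received 1000 CD45.2(+) leukemic cells of genotype Mx1-Cre Brd9fl/fl MA9, strain C57BL/6. Both groups therefore carry the floxed Brd9 alleles, the Mx1-Cre transgene and the oncogene, and differ in the injection: PBS, or pIpC at 20 mg/kg, in 3 doses given every second day from the day after transplantation, with collection at 10 days. Cre in this model is driven by the Mx1 promoter, which responds to interferon, and pIpC, a synthetic double-stranded RNA, evokes that interferon throughout the recipient. RNA was taken from GFP+ cells of femora and tibiae in 3 libraries per group, where GFP marks cells with the retroviral oncogene. How pure the sorted cells were was not tested. The study's methods differ from the labels in naming c-Kit+ cells, stranded libraries and sublethal irradiation, where the labels give GFP+ cells, unstranded libraries and lethal irradiation; the labels are followed here. The labels do not say whether the libraries came from separate animals, so p-values measure the spread between these 6 samples. In bulk RNA, fewer cells of a type and less RNA per cell cannot be told apart.

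Resident macrophages of the marrow sit at the center of erythroblastic islands, where they engulf the nuclei shed by maturing red cells, take up aged red cells, break down their heme and return the iron to the circulation. C1q, the recognition unit of the classical complement pathway, is assembled from the products of C1qa, C1qb and C1qc and is made mainly by macrophages and dendritic cells. Spic encodes the transcription factor Spi-C, needed for iron-recycling macrophages of spleen and marrow, and its gene and Hmox1 are both released from the repressor Bach1 when heme accumulates.

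Brd9 itself was measured first, since it is the targeted gene. PBS replicates 1 to 3 had normalized counts of 1926.8, 1946.4 and 1631.9, and the 3 libraries labelled pIpC of 2036, 2263 and 2011.4. No library labelled pIpC was below a PBS library (exact permutation p = 0.1, 2-sided), and the log2 fold change (log2FC, libraries labelled pIpC minus PBS, given with its standard error, s.e.) was 0.20 ± 0.13 (adjusted p = 0.259). The count covers the whole gene, and values per exon were not analysed here. Because the whole-gene count did not fall, and does not measure the loss of single exons, the group is called the libraries labelled pIpC throughout. PBS replicate 3 stood apart from the other PBS libraries: the chi-square statistic per gene was 6.30 between PBS replicates 1 and 2, 194 and 171 between these and replicate 3, and 7.93 to 16.8 among the libraries labelled pIpC. No pair of libraries agreed within sampling noise. Reads on genes numbered 19277439 to 22378154 in PBS and 22348517 to 23586722 in the other libraries.

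The reference promoters of 7 of the 10 genes were at hand from RefSeq (GRCm38.p6): those of C1qb, C1qc, Cd68, Mrc1, Cd163, Mertk and Spic. Only windows that hold the sequence word marked below are shown, those of 3 genes that rose and of 1 that fell. The windows of Cd163, Mertk and Spic, which also rose, do not hold it. Those of C1qc and Mrc1 were cut where the GENCODE gene begins, and those of C1qb and Cd68 did not reach it and are uncut. All windows shown are read 5′ to 3′ on the strand of the gene. They lie at chr4:136886201-136886450 (minus strand) for C1qb, chr4:136893066-136893164 (minus) for C1qc, chr2:14229164-14229391 (plus) for Mrc1 and chr11:69666171-69666420 (minus) for Cd68. Capitals mark GAGGAA, the core word bound by PU.1, the master transcription factor of myeloid cells, and by its relative Spi-C, or its reverse complement TTCCTC.
C1qb: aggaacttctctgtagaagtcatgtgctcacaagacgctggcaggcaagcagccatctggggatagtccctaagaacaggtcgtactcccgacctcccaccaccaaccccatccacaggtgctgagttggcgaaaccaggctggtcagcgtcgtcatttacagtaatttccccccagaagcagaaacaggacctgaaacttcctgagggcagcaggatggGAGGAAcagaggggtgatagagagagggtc
C1qc: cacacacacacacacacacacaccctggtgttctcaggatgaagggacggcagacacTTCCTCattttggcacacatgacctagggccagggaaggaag
Mrc1: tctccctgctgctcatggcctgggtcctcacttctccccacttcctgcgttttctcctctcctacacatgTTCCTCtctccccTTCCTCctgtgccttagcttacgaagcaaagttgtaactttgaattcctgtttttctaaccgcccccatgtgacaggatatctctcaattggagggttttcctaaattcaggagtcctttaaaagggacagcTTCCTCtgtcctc
Cd68: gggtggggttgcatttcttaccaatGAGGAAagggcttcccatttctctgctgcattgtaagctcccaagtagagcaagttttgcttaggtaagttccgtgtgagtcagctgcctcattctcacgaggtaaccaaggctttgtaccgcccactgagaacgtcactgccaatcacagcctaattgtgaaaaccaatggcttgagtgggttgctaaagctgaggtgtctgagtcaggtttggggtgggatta

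The capitals occur 1 time in the C1qb, C1qc and Cd68 windows, starting 30, 42 and 225 bases before the end of the window as shown, and 3 times in that of Mrc1, at 158, 145 and 13 bases. Over the full 250 bases before the RefSeq start, GAGGAA on either strand was found in 4 of the 7 promoters and in 23.3% of 32851 mouse promoters of that length. Cd68, which was lower, and C1qb, C1qc and Mrc1, which were higher, share the word. The Maf core word TGCTGA was in 2 of 7, those of C1qb and Spic, against 16.1% of all, and the AP-1 site TGACTCA only in that of Cd68, 2 times, against 4.46% of all. The matches did not overlap one another. A match is a description of the letters and not a bound site.

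The 3 chains of C1q were low in every PBS library and high in every library labelled pIpC. C1qa, the A chain, had normalized counts of 13.8, 41.5 and 44.1 in the PBS libraries and of 523.0, 298.3 and 510.6 in those labelled pIpC. C1qb, the B chain, stood at 19.9, 29.4 and 43.0 against 565.9, 231.9 and 367.5, and C1qc, the C chain, at 26.8, 33.4 and 33.9 against 435.2, 296.3 and 454.5. In no chain did the groups overlap, and the lowest library labelled pIpC was replicate 2 for each of the 3. Means rose from 33.2 ± 16.8 to 444 ± 126 (SD, n = 3) for C1qa, 13.4-fold, with a log2FC of 3.82 ± 0.48 (s.e.) and an adjusted p of 0.00107 (limma, Benjamini-Hochberg). For C1qb they rose from 30.8 ± 11.6 to 388 ± 168 (SD, n = 3), a log2FC of 3.59 ± 0.41 (s.e., adjusted p = 0.000703). C1qc went from 31.4 ± 3.97 to 395 ± 86.3 (SD, n = 3), with a log2FC of 3.60 ± 0.24 (s.e., adjusted p = 8.2e-05).

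**Figure D1:**
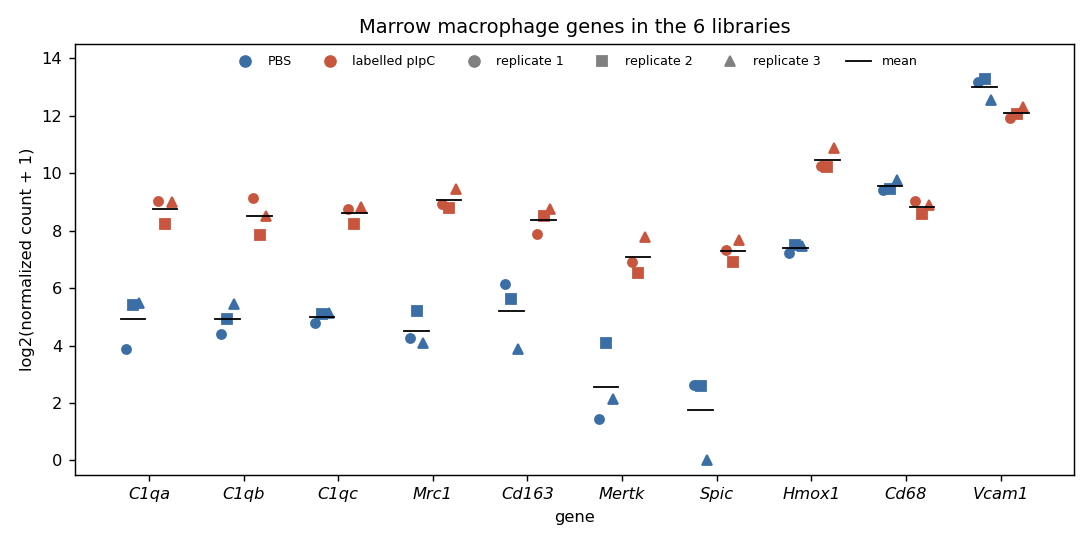
Normalized counts of the 10 macrophage genes on the log2(normalized count + 1) scale, with 1 point per library (blue PBS, red labelled pIpC, the shape giving the replicate) and a bar at the group mean. In each gene the 3 red points lie on one side of the 3 blue ones, above them in 8 genes and below them in Cd68 and Vcam1, a separation found in 56.8% of all genes tested.

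The chains lie side by side on chromosome 4 of GRCm38, within 18.7 kb on the minus strand, C1qb at chr4:136880129-136886187, C1qc at chr4:136889804-136893065 and C1qa at chr4:136895917-136898803. Reads on the 3 genes together numbered 70, 103 and 107 in the PBS libraries and 1527, 809 and 1378 in those labelled pIpC, or, as RPM (reads scaled to library size), 3.13, 5.34 and 5.04 against 65.7, 36.2 and 58.4. Their proportions to one another were set side by side, since C1q needs all 3 chains. C1qa made up 22.9% (95% Wilson interval 14.6 to 34.0), 39.8% and 36.4% of the C1q reads in PBS replicates 1 to 3. In the libraries labelled pIpC its share was 34.3% (32.0 to 36.7), 36.1% and 38.3%, in the order of the replicates. Intervals cover counting error only, as PCR reads are not independent molecules. On the log2 scale the ratio of C1qb to C1qa was -0.0045 ± 0.51 in PBS and -0.24 ± 0.31 in the libraries labelled pIpC (SD, n = 3; 2-sided exact permutation p = 0.7), a difference of -0.24. For C1qc to C1qa it was 0.088 ± 0.75 against -0.15 ± 0.13 (SD, n = 3; exact p = 1), again a difference of -0.24. Adjusted over the 2 ratios both p were 1, and 3 libraries against 3 cannot give a p below 0.1. Without PBS replicate 1 the differences had the other sign, 0.027 and 0.20.

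**Figure D2:**
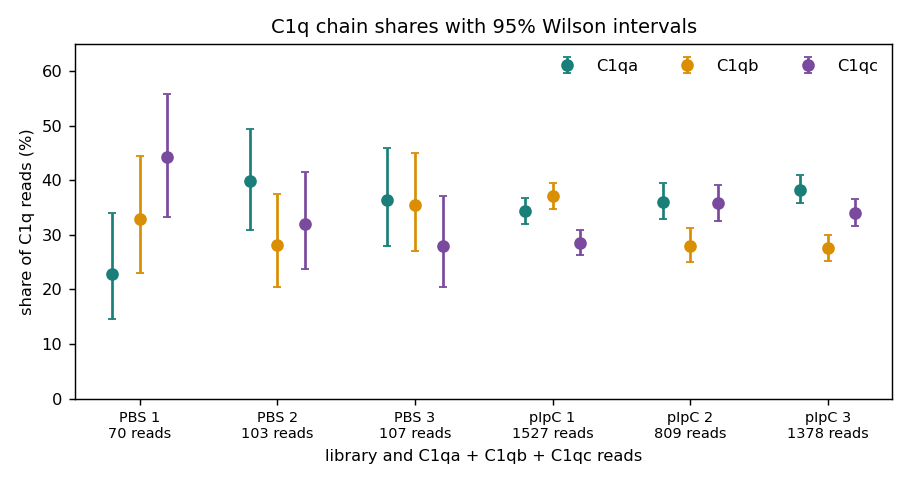
Share of the C1q reads of each library that fell on C1qa, C1qb and C1qc, in percent, with 95% Wilson intervals; the read totals stand under each library. The PBS shares, from 70 to 107 reads, have wide intervals, and those labelled pIpC, from 809 to 1527 reads, narrow ones.

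Ephb2 and Zbtb40 were the nearest protein-coding genes on either side that could be tested. Ephb2, a receptor for ephrins that begins 44.1 kb before the cluster, had 0, 1 and 1 reads in the PBS libraries and 35, 28 and 33 in those labelled pIpC, and was called higher (adjusted p = 0.000431 from limma). With so few PBS reads Ephb2 passed the filter only through the libraries labelled pIpC, so the direction of its call was set by the filter. Zbtb40, a zinc finger gene 80.9 kb after the cluster, fell from 1106 ± 186 to 367 ± 39.6 normalized counts (SD, n = 3), with a log2FC of -1.58 ± 0.18 (s.e., adjusted p = 0.000606). Epha8, 30.6 kb after the cluster and the closest protein-coding gene, had at most 2 reads in any library and was not tested.

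Of the receptors for debris, sugars and hemoglobin, all 3 were higher. Mrc1, the mannose receptor CD206 (chr2:14229392-14332057), was counted at 18.2, 35.4 and 15.8 in the PBS libraries and at 484.1, 445.5 and 696.2 in those labelled pIpC. Its mean went from 23.1 ± 10.7 to 542 ± 135 (SD, n = 3), 23.4-fold, and the log2FC was 4.55 (standard error 0.35, adjusted p = 0.000134). No PBS library came near the others, the highest holding 35.4 and the lowest library labelled pIpC 445.5.

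Cd163 (chr6:124304656-124330527), the receptor that takes up hemoglobin bound to haptoglobin, was at 69.2, 48.6 and 13.6 in PBS and at 234.5, 365.8 and 433.2 in the libraries labelled pIpC. PBS replicate 3 was the lowest of the 6. The mean rose 7.87-fold, from 43.8 ± 28.1 to 345 ± 101 (SD, n = 3), with a log2FC of 3.18 ± 0.59 (s.e., adjusted p = 0.00609) that was 2.50 without PBS replicate 3.

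Mertk (chr2:128698956-128802894), a receptor tyrosine kinase with which macrophages recognize apoptotic cells, was near the detection floor in PBS, with 2, 16 and 3 reads, and had 118, 90 and 225 reads in the libraries labelled pIpC. In normalized counts that is 7.11 ± 7.91 against 142 ± 66.3 (SD, n = 3), 20.0-fold, with a log2FC of 4.50 ± 0.72 (s.e., adjusted p = 0.0031). PBS replicate 2 held most of the PBS reads, and without it the log2FC was 5.27. An unstranded protocol, as the labels state, cannot separate Mertk from the antisense gene Gm14011 within it, whose own mean count was at most 0.341.

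Both genes under heme control were higher. Spic (chr10:88674772-88685015) had 6, 5 and 0 reads in the PBS libraries and 158, 116 and 209 in those labelled pIpC. Its normalized count was 3.42 ± 2.96 against 159 ± 41.8 (SD, n = 3), and the log2FC of 5.55 ± 0.74 (s.e., adjusted p = 0.00139) was the largest of the 10 genes, except with a pseudocount of 10, where that of Mrc1 (4.08) was above it. PBS replicate 3 was the library without a read, and leaving it out gave 4.68. For Spic and Mertk the size of the fold rests on a handful of PBS reads: with a pseudocount of 10 in place of 1 they were at 3.65 and 3.16, with a pseudocount of 0.1 Spic was at 6.80, and quantile normalization gave 4.94 and 3.78.

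Hmox1 (chr8:75093621-75100589), which encodes heme oxygenase-1, the inducible enzyme that opens the heme ring, was well measured in both groups. Its normalized count was 147.1, 180.2 and 174.3 in PBS and 1210.6, 1200.5 and 1883.7 in the libraries labelled pIpC. Every library labelled pIpC was above every PBS library. From 167 ± 17.6 the mean rose to 1432 ± 392 (SD, n = 3), 8.56-fold, and the log2FC of 3.06 ± 0.21 (s.e., adjusted p = 9.6e-05) stayed between 2.85 and 3.17 in all 17 alternatives run.

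The lysosomal and adhesion genes of the set were lower. Cd68 (chr11:69664213-69666153), a heavily glycosylated protein of the lysosomal membrane, stood at 679.2, 701.4 and 858.9 in the PBS libraries and at 519.0, 381.1 and 474.8 in those labelled pIpC. All of the latter were below the lowest PBS library. The mean fell from 747 ± 98.0 to 458 ± 70.4 (SD, n = 3), a log2FC of -0.71 ± 0.17 (s.e., adjusted p = 0.019). Without PBS replicate 3, its highest library, it was -0.60.

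Vcam1 (chr3:116109949-116129688), the adhesion molecule by which island macrophages hold erythroblasts, was the most counted gene of the set. Its normalized count was 9264.7, 9984.2 and 6014.8 in PBS and 3909.4, 4326.8 and 5096.1 in the libraries labelled pIpC. PBS replicate 3 was the nearest to the other group and still above it. The mean fell from 8421 ± 2115 to 4444 ± 602 (SD, n = 3), with a log2FC of -0.90 ± 0.22 (s.e., adjusted p = 0.0197), and of -1.12 without PBS replicate 3. The antisense gene Gm43109 overlaps it and had a mean count of at most 7.33.

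Counted together, 8 of the 10 genes were higher and 2 lower at an adjusted p under 0.1, where 25.0% of the 15020 genes tested were higher, 20.4% lower and 45.3% either. The groups did not overlap in any of the 10 genes, a pattern found in 56.8% of all genes tested, 30.5% with the libraries labelled pIpC above and 26.3% with them below. The median log2FC was 3.59, against 0.015 over all genes tested. Spic and Mertk had a PBS mean under 10 and passed the filter on low counts through the libraries labelled pIpC, while the other 8 genes had means of at least 10 in both groups. Among the libraries labelled pIpC, replicate 3 was the highest of the 3 in 7 genes and replicate 2 the lowest in 8. Without PBS replicate 3 the same split of 8 higher and 2 lower was found.

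**Figure D3:**
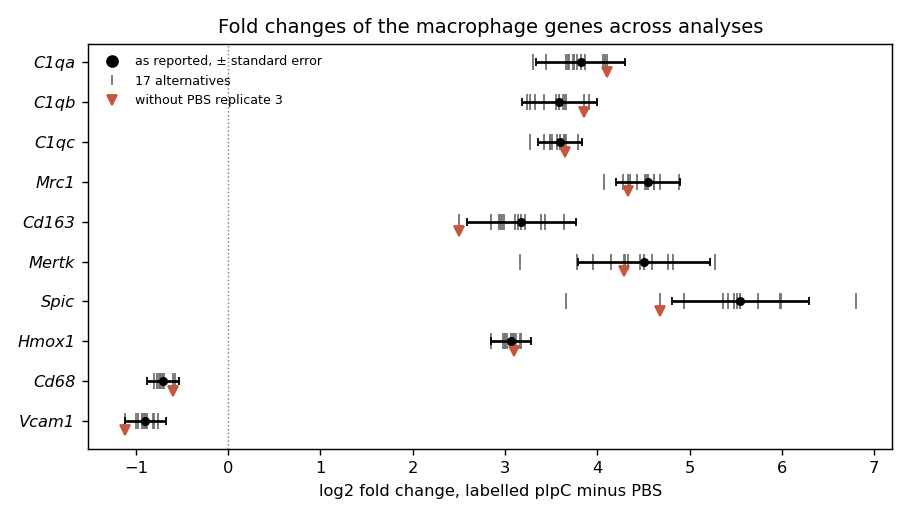
Log2 fold change of each macrophage gene, libraries labelled pIpC minus PBS; black points are the reported values with their standard errors, gray ticks the 17 alternative analyses, and red triangles the values without PBS replicate 3. No tick crosses 0, and the widest spread is that of Spic, from 3.65 to 6.80.

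On a scale that allows genes to be compared, RPKM (reads per kilobase of exon, scaled to library size), the order of the 10 genes differed between the groups. In the PBS libraries Vcam1 was at 46.6 ± 16.0 and Cd68 at 28.3 ± 0.363 (SD, n = 3), with overlapping ranges. Hmox1 followed at 4.58 ± 0.604, separate from both. C1qa, at 1.50 ± 0.717, and C1qb, at 1.32 ± 0.354, overlapped, and C1qc, at 0.779 ± 0.0938, lay below the range of C1qb and within that of C1qa. Cd163 (0.405 ± 0.279), Mrc1 (0.179 ± 0.0947), Mertk (0.0815 ± 0.0953) and Spic (0.0458 ± 0.0397) came last, each overlapping the next.

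In the libraries labelled pIpC Hmox1 led at 35.7 ± 9.96 RPKM, above the range of every other gene of the set. Vcam1 (21.8 ± 3.13), C1qa (18.6 ± 5.22), Cd68 (15.9 ± 2.33), C1qb (15.5 ± 6.57) and C1qc (8.92 ± 1.93) followed, each with a range that overlapped that of its neighbor. Mrc1 (3.71 ± 0.943), Cd163 (2.75 ± 0.828), Spic (1.81 ± 0.479) and Mertk (1.43 ± 0.675) were again the lowest (SD, n = 3). The level of C1qa per length was thus far under that of Cd68 in PBS and not separate from it in the libraries labelled pIpC.

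**Figure D4:**
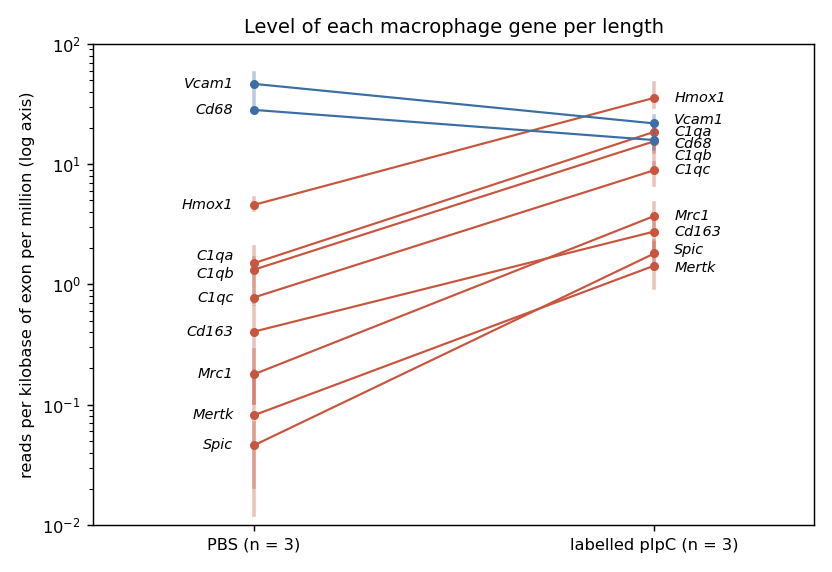
Level of each macrophage gene per length (RPKM, log axis) in the PBS libraries and those labelled pIpC; points are means of 3 libraries, vertical bars their range (cut at the axis where it reaches 0), red lines genes with the higher mean in the libraries labelled pIpC and blue lines the reverse. Hmox1 moves from 4.58 to 35.7 and passes Vcam1 and Cd68.

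Genes outside the set were ranked by how closely their log2 profile over the 6 libraries, centred on its mean, followed the average of the 3 C1q chains. The nearest were Sdc3, which encodes a cell surface proteoglycan (root mean square difference 0.240 on the log2 scale), B4galt4, a galactosyltransferase (0.267), Slc43a1, an amino acid transporter (0.269), Casc4 (0.288) and Fbln5, an extracellular matrix protein (0.298). Casc4 and Fbln5 had PBS means of only 4.10 and 0.715 normalized counts, and their folds move with the pseudocount. The chains lay at 0.173 to 0.242, but each is part of the C1q average, so their distances are small by construction. Of the other macrophage genes, Hmox1 lay at 0.471, Mrc1 at 0.658, Mertk at 0.858, Cd163 at 1.08 and Spic at 1.46. Cd68 and Vcam1 lay farthest, the latter at 2.35. Sdc3 went from 30.7 ± 12.3 to 413 ± 145 normalized counts (SD, n = 3), with the lowest library labelled pIpC again being replicate 2. These distances are over 6 libraries and are a description.

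The partners of each gene were then counted from lists of related genes, against the same 25.0% higher and 20.4% lower over all genes. A gene with a PBS mean under 10 normalized counts passed the filter only through the libraries labelled pIpC and could not have the lower mean there, and the reverse holds for Gpnmb, Adgrb1, Colec12 and Egr2, with a mean under 10 in the libraries labelled pIpC. The number with a low PBS mean stands beside each count, and neither the counts nor the medians are support for a direction. Of 20 other genes of resident macrophages, 15 could be tested, with 11 higher, 2 lower and a median log2FC of 2.87, and 6 of the 11 had a PBS mean under 10. Lyve1, a hyaluronan receptor, had 1 read in all PBS libraries together and normalized counts of 50.9, 46.0 and 66.7 in those labelled pIpC (adjusted p = 0.000138). Siglec1, the sialic acid receptor CD169 of island macrophages, rose from 5.67 ± 3.94 to 161 ± 56.4 (SD, n = 3), a log2FC of 4.81 (adjusted p = 0.00121), or 4.12 without PBS replicate 3. The opposite was seen for Adgre1, which encodes the macrophage antigen F4/80, at 4307 ± 138 in PBS against 310 ± 44.5 (SD, n = 3; log2FC -3.80, adjusted p = 1.68e-05), and for Gpnmb, a lysosomal glycoprotein, at 253 ± 63.6 against 9.27 ± 0.966 (-4.60, adjusted p = 5.62e-05). Cd209b was at 0 in all 6 libraries and Marco in all PBS libraries, with at most 1 read in the others. The summed normalized count of the list was 7893 to 8554 in PBS and 9029 to 10190 in the libraries labelled pIpC.

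MERTK belongs to the TAM receptors, which bind phosphatidylserine on dying cells through bridging proteins. Of 8 receptor and ligand genes 5 could be tested, and all 5 were higher, Mertk included; Mertk and Pros1, 2 of the 5, had a PBS mean under 10. Axl, the second receptor, was at 25.1, 54.7 and 14.7 in PBS and at 683, 490 and 835 in the libraries labelled pIpC, a log2FC of 4.53 (adjusted p = 0.000463). Its order within the libraries labelled pIpC was that of Mertk, with replicate 3 highest and replicate 2 lowest. The bridging protein genes Gas6 and Pros1 rose by a log2FC of 2.51 (adjusted p = 0.000708) and 4.45 (adjusted p = 0.000272), and Lgals3, another ligand, by 1.25 (adjusted p = 0.0181). Tyro3, the remaining receptor, had means of 2.25 ± 0.997 and 2.35 ± 1.59 (SD, n = 3) and was not tested, nor were Tub and Tulp1.

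Among 20 genes of apoptotic cell uptake, 18 were tested, 10 of them higher (2 with a PBS mean under 10) and 3 lower, with a median of 0.71. Cd36, a scavenger receptor, rose from 4.27 ± 2.51 to 74.2 ± 8.94 (SD, n = 3), a log2FC of 3.93 (adjusted p = 0.000463). Abca1, a cholesterol exporter, had a log2FC of 3.60 (adjusted p = 0.0059), which was 2.95 without PBS replicate 3 and 4.31 without PBS replicate 2. Adgrb1, the phosphatidylserine receptor BAI1, fell from 398 ± 91.3 to 2.71 ± 3.13 (SD, n = 3), with a log2FC of -7.14 (adjusted p = 0.000338) that was -7.82 without pIpC replicate 2 and -6.40 without pIpC replicate 3. Itgb5, an integrin subunit for bridged apoptotic cells, fell by 3.36 on the log2 scale (adjusted p = 4.44e-05). Cd36 had a PBS mean under 10 and Adgrb1 a mean under 10 in the libraries labelled pIpC. The filter set the direction of both, so no direction is drawn for the engulfment receptors.

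Of 17 scavenger and mannose receptor genes, to which Mrc1 and Cd163 are related, 14 were tested, 8 higher (2 with a PBS mean under 10) and 4 lower, with a median of 0.81. Besides Cd36, the highest was Cd5l, a secreted scavenger protein, at 19.0 ± 8.13 against 273 ± 93.4 (SD, n = 3; log2FC 3.79, adjusted p = 0.000429). The lowest were Colec12, a collectin, with a log2FC of -2.09 (adjusted p = 0.00389) and Lamp1, which like Cd68 is a protein of the lysosomal membrane, at -1.06 (adjusted p = 0.000906).

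C1q acts with further complement proteins. Of 16 such partners 14 were tested, 7 higher (2 with a PBS mean under 10) and 2 lower, with a median of 0.48. The serine protease gene C1ra went from 94.5 ± 18.6 to 162 ± 42.0 normalized counts (SD, n = 3), a log2FC of 0.76 (adjusted p = 0.0644) that was no longer past the threshold without PBS replicate 2 (0.64, adjusted p = 0.157), without pIpC replicate 2 (0.57, adjusted p = 0.224) or without pIpC replicate 3 (0.76, adjusted p = 0.167). Nor was C1ra past it with a replicate block (limma, adjusted p = 0.127). Its partner C1s1 was at 5.30 ± 0.314 and 7.40 ± 6.07 (SD, n = 3) and was not tested. The receptor gene C5ar1 rose from 104 ± 17.7 to 2352 ± 294 (SD, n = 3; log2FC 4.49, adjusted p = 1.77e-05), and Serping1, the inhibitor of C1, from 1.29 ± 0.385 to 36.9 ± 19.6 (SD, n = 3; adjusted p = 0.00192). C2 and Calr, with a log2FC of -0.92 (adjusted p = 0.0966) and -0.88 (adjusted p = 0.0292), were the 2 called lower. C2 was called without PBS replicate 2 but not when any other library was left out (adjusted p from 0.124 to 0.257), and Calr not without pIpC replicate 2 or 3 (adjusted p = 0.118 and 0.126). C2 was also not called with a pseudocount of 0.1, no filter or a replicate block (limma, adjusted p = 0.109, 0.182 and 0.143), or by DESeq2 (adjusted p = 0.116).

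The genes of heme breakdown and iron recycling were divided. Of 17 genes 16 were tested, 6 higher (0 with a PBS mean under 10) and 2 lower, with a median of 0.11. Slc11a1, an iron and metal exporter of phagosomes, rose from 74.4 ± 16.3 to 507 ± 16.9 (SD, n = 3), a log2FC of 2.78 (adjusted p = 0.000129). Lrp1, which takes up heme bound to hemopexin, had a log2FC of 2.46 (adjusted p = 0.00549). Slc46a1, a heme and folate carrier, had one of -2.04 (adjusted p = 0.00215). Ftl1, the ferritin light chain, whose reads pseudogene copies can share, had one of -0.95 (adjusted p = 0.095) and missed the threshold without any one of the libraries labelled pIpC (adjusted p from 0.197 to 0.232). Hmox2, the constitutive heme oxygenase (chosen after its values were seen, like Slc40a1), was at 1100.4 ± 328 against 1088 ± 52.3 (SD, n = 3). Slc40a1, the iron exporter ferroportin, rose from 1507 ± 233 to 4101 ± 369 (SD, n = 3; log2FC 1.45, adjusted p = 0.000531). PBS replicate 3 mattered most here: without it 11 genes were higher instead of 6.

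**Figure D5:**
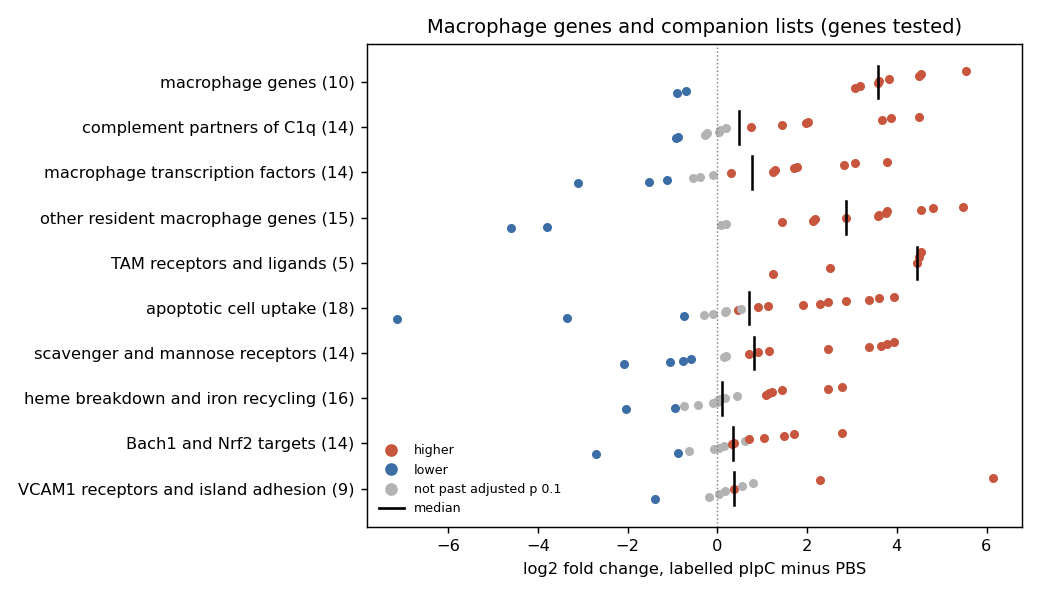
Log2 fold changes, libraries labelled pIpC minus PBS, of the 10 macrophage genes and of the tested genes of 9 related lists (numbers in brackets); red is higher, blue lower and gray not past an adjusted p of 0.1, and a black bar marks the median. The median is 3.59 for the macrophage genes, 4.45 for the TAM receptors and ligands, and 0.11 for heme breakdown and iron recycling.

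Targets of Bach1 and of its counterpart Nrf2, the activator of the same sites, were counted beside Spic and Hmox1. The list also held the regulator genes Bach1, Nfe2l2, Keap1, Mafk and Mafg, so its counts and median are not of targets alone. Of 15 genes 14 were tested, 7 higher (0 with a PBS mean under 10) and 2 lower, with a median of 0.35; 4 were higher without pIpC replicate 2, and 4 lower without PBS replicate 3. Slc7a11, the cystine transporter, rose with a log2FC of 2.77 (adjusted p = 0.000344) and Nfe2l2, the gene of Nrf2, with one of 1.71 (adjusted p = 0.000112). Srxn1 and Gsr, both of which encode enzymes that reverse oxidation, had log2FC values of -2.70 (adjusted p = 0.000136) and -0.87 (adjusted p = 0.00441).

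Of 14 macrophage transcription factor genes, all tested, 8 were higher (3 with a PBS mean under 10) and 3 lower, with a median of 0.77, and 5 were lower without PBS replicate 3. Pparg and Id3 had the largest log2FC, 3.77 (adjusted p = 0.000594) and 3.06 (adjusted p = 0.00272). Both had a PBS mean under 10, at 4.12 and 2.54 normalized counts, so the filter set their direction. With a pseudocount of 10 their log2FC was 2.43 and 1.59. Egr2 and Tfec had a log2FC of -3.12 (adjusted p = 0.000931) and -1.51 (adjusted p = 0.00126).

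A list drawn up for the receptors of VCAM1 and for island adhesion numbered 10 genes. Of these 9 were tested, 3 higher (2, Epor and Emp1, with a PBS mean under 10) and 1 lower, with a median of 0.36. Emp1 encodes epithelial membrane protein 1, not the protein that attaches erythroblasts, and Epor and Dnase2a are not adhesion genes. The integrin genes that pair to bind VCAM1 were not called: Itga4 was at 2742 ± 1364 against 3569 ± 299, Itgb1 at 3837 ± 605 against 3912 ± 198, Itgb7 at 703 ± 179 against 609 ± 49.2, and Itga9 at 33.3 ± 13.1 against 57.8 ± 19.2 (SD, n = 3). Itga9 was past the threshold without PBS replicate 2 (1.08, adjusted p = 0.0961), and Itgav, another integrin of islands, was at 663 ± 100 against 746 ± 9.85 (SD, n = 3). The erythropoietin receptor gene Epor had 2, 3 and 0 reads in PBS and normalized counts of 152, 109 and 227 in the other libraries (adjusted p = 0.000313). Emp1 and Maea, the latter a macrophage protein that attaches erythroblasts, were higher, with a log2FC of 2.28 (adjusted p = 0.0107) and 0.36 (adjusted p = 0.0372). Maea was not past the threshold when any library but PBS replicate 1 or 3 was left out (adjusted p from 0.110 to 0.128). Nor was Maea past it under quantile normalization (log2FC 0.23) or with a replicate block (limma, adjusted p = 0.135). Dnase2a, the nuclease with which island macrophages digest shed nuclei, fell by 1.39 on the log2 scale (adjusted p = 0.00655). Icam4 was at 0 in all libraries.

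Markers of other marrow cells were counted as well, and their part in the result was not tested. Of the 11 erythroid markers tested, 10 had a PBS mean under 10 and passed the filter only through the libraries labelled pIpC, so that their count, all 11 higher, was largely set by the filter; the list had a summed normalized count of 20.8 to 34.0 in PBS and 4129 to 5711 in the libraries labelled pIpC. Slc4a1 and Rhag were at 0 in every PBS library, and Hba-a1, whose reads a near-identical copy can share, was at 1.73, 3.04 and 4.53 normalized counts there. All 12 neutrophil markers, none of them with a PBS mean under 10, were higher, summing to 20719 to 42427 against 2092161 to 2150771, with Ly6g at 19.4 ± 14.6 against 4315 ± 234 (SD, n = 3).

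Dendritic cells, which also make C1q, had 9 of 10 markers higher, 7 of them with a PBS mean under 10, with sums of 923 to 1708 against 1479 to 2274, which overlap. Of the monocyte markers 5 were higher and 3 lower of 10 (3 higher without pIpC replicate 1), with sums of 140752 to 171888 against 203008 to 225574. The 10 B cell markers and the 7 T and NK cell markers tested were all higher, but 8 and 7 of them had a PBS mean under 10 and passed only through the libraries labelled pIpC. They summed to 138 to 307 against 1536 to 2857, and to 23.8 to 31.1 against 273 to 290; Ms4a1 was at 0 in every PBS library. Endothelial cells and mesenchymal stroma are other sources of VCAM1 in marrow. Their lists had 9 of 10 and 4 of 6 tested markers higher, 5 and 3 of them with a PBS mean under 10, with sums of 1342 to 2256 against 1765 to 1897 and of 243 to 299 against 708 to 1066, and the stromal marker Adipoq was at 0 in every PBS library. Of the 10 leukemia genes bound up with MLL-AF9, 9 were lower (1 with a mean under 10 in the libraries labelled pIpC) and Mef2c, with a PBS mean under 10, higher, and their sum went from a range of 42838 to 58352 to one of 17247 to 17680; Hoxa9 was at 5130 ± 195 against 256 ± 28.4 (SD, n = 3).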

How the data were processed

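Bulk RNA-seq of 6 mouse libraries was used, 3 labelled PBS and 3 labelled pIpC. The authors deposited 1 table of normalized counts, a signal obtained by dividing gene counts by 1 factor per library; the study's methods name STAR, RSEM and DESeq2, while the submitters' processing notes name HISAT2 2.2.1, SAMtools, featureCounts, Subread, edgeR and GRCm38. In every column 100% of the values above 0 could be divided by the worth of a single read to give whole numbers (tolerance 0.01), taken as the reads; no column was left out. Symbols, positions and exon lengths came from GENCODE M21 (55141 of 55487 genes given a symbol).

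Genes averaging at least 10 normalized counts (15020 of them) were fitted with limma 3.58.1 (R 4.3.3, intensity trend) on log2(normalized count + 1), a scale that understates changes of low genes, with calls made where the adjusted p (Benjamini-Hochberg) was under 0.1. The scripts were tested on simulated data. Exact permutation tests used scipy 1.17.1. A group with at most 3 reads in each library was at the floor.

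The 10 genes, the related lists and the tests were chosen with earlier results of these data known. Genes named are these 10, Brd9, those with the 2 highest and 2 lowest fold changes of the lists (for marker lists some of them), all of 2 short lists, C1ra and C1s1, and the 5 nearest profiles; Ephb2, Zbtb40 and Epha8 as neighbors, Slc40a1, Hmox2 and markers at 0 (some are not reported here) were added with their values seen. Alternatives were pseudocounts of 0.1 and 10, filtering at 0 or at 50, quantile and median-centred scaling, each library left out, a replicate block, no trend, edgeR 4.0.16, DESeq2 1.42.0 and an adjusted p under 0.05.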

Additional observations from a re-analysis of the deposited data

How the results depend on the processing

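In all 17 alternatives each of the 10 macrophage genes kept its direction and stayed past the threshold (170 of 170 comparisons), so that 8 were higher and 2 lower each time; the highest adjusted p were 0.0832 for Vcam1 and 0.0789 for Cd68, each with 1 library left out. Spic and Mertk had a PBS mean under 10. Past the filter of 10 they could not have the lower mean in the libraries labelled pIpC, so their kept direction is not support. Brd9 ranged from 0.061 to 0.24 and was not called. Over all genes the number changed ran from 4650 (without pIpC replicate 2) to 9783 (without PBS replicate 3), with 6901 by edgeR and 7451 by DESeq2. Quantile normalization moved the median of all genes to -0.12 and the share of higher calls from 55.1% to 44.3%; Cd68 and Vcam1 were then at -0.74 and -0.98, still below that median. Replicate numbers were not taken to pair the libraries: deviations of same-numbered libraries correlated at -0.117, 0.143 and 0.041, and with a replicate block 6095 genes changed, 8 macrophage genes were higher and 2 lower, and Brd9 was at 0.20. Of 1406 comparisons of the other 84 genes, 1353 kept direction and side, 39 lost a call, 7 gained one and 7 changed sign, all 7 in genes that were not called: Itgb1 was at -0.087 and Col1a1 at -0.11 under quantile normalization, and with 1 library left out Itgb1 ran from -0.099 to 0.11, Col1a1 from -0.068 to 0.21 and Itgb7 from -0.37 to 0.0028. Leaving out a library gave differences of the C1qb to C1qa ratio from -0.48 to 0.027 and of C1qc to C1qa from -0.47 to 0.20; the cause was not tested. Genes with fewer than about 10 counts in PBS have folds that move with the pseudocount, and their direction was largely set by the filter.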
